A study of Mus musculus with 8 samples.

Results

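The 10 genes Spry1, Spry2, Spry4, Spred1, Spred2, Dusp4, Dusp6, Etv1, Etv4 and Etv5 are targets and feedback regulators of fibroblast growth factor (FGF) and ERK signaling, and their RNA was followed in sorted cells of the neonatal mouse cochlea. They were chosen by symbol in the NCBIM37 (mm9) annotation, and each matched 1 of the 36536 genes counted in every library. All 10 passed the filter on low counts in all comparisons, and the smallest count of any of them in any library was 61 reads, for Spry4 in P6 GFP+ replicate 1.

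All mice carried the Lfng-GFP BAC transgene of the strain B6;FVB-Tg(Lfng-EGFP)HM340Gsat/Mmucd, in which the Lunatic fringe locus drives GFP. Cells were taken at postnatal day 1 (P1) or day 6 (P6), with no culture and no treatment, and were sorted into the brightest GFP+ cells and GFP- cells. Each of the 4 groups (P1 GFP+, P1 GFP-, P6 GFP+ and P6 GFP-) had 2 libraries, each made from pooled pups. In this line GFP marks border, inner phalangeal, outer pillar and Deiters' cells, but not inner pillar cells. Cells with dim GFP were not collected, so the GFP- fraction held a mixture of the unlabelled cells of the dissected duct. The lateral wall was peeled away at P1 and only partly cut away at P6, so a difference between the GFP- groups cannot be told apart from a difference in dissection. In such bulk samples fewer cells of a type and less RNA per cell cannot be told apart.

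FGF ligands bind receptor tyrosine kinases that pass the signal through adaptor proteins, Ras and the kinase cascade ending in ERK. ERK activity induces its own inhibitors. Sprouty and Spred proteins damp the pathway between receptor and Raf, the phosphatases Dusp4 and Dusp6 remove phosphate from ERK, and Etv1, Etv4 and Etv5 (the PEA3 group of ETS transcription factors) carry the response to target genes. In the cochlea, FGF signaling takes part in the formation of the sensory epithelium and, through Fgfr3, in the development of pillar and Deiters' cells.

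The libraries held between 17769024 and 67695039 counts on genes, and levels are given as CPM (counts of a gene per 1000000 counts on genes) or, where genes are compared with each other, per kilobase of exon as well (RPKM). Of 8 supporting cell markers 7 were higher in GFP+ cells at both ages, and Slc1a3, a glutamate transporter also made by other glia, was the exception. Slc1a3 was called lower in GFP+ than in GFP- cells at P1 (means of 157 and 345 CPM). At P6 it was not called (means of 260 and 223 CPM). The summed level of these markers was 5908 to 9159 CPM in GFP+ libraries and 505 to 669 CPM in GFP- libraries. Of 8 hair cell markers, 4 were called higher in GFP+ cells and 0 lower at each age in edgeR, among them Otof (log2 3.39 at P1 and 2.74 at P6) and Pou4f3 (log2 3.61 and 4.36). Their sums were 442 to 804 CPM in GFP+ libraries and 353 to 476 CPM in GFP- libraries, with no marker at 0. Most of each sum was Myo6, with means of 459 CPM in GFP+ and 377 CPM in GFP- cells at P1. At P6 its means were 288 CPM in GFP+ and 326 CPM in GFP- cells. Of the 8 markers, 2 had a negative sign at P1 and 1 at P6. Myo7a fell with age in GFP+ cells (log2 -1.73 ± 0.21 SE, edgeR adjusted p = 0.00823). P6 GFP+ replicate 2 stood apart. Over the 773 genes whose P1 level in GFP- cells exceeded that in GFP+ cells by 16-fold or more, it exceeded P6 GFP+ replicate 1 by a median of 1.54 on the log2 scale, against -0.04 between the P1 GFP+ replicates. Its 8 mesenchyme and fibrocyte markers summed to 3334 CPM, against 1539 CPM in replicate 1, 439 to 484 CPM in the P1 GFP+ libraries and 13667 to 18349 CPM in GFP- libraries. Its 6 endothelial markers summed to 228 CPM against 62.1 CPM in replicate 1. Their sums were 25.9 to 28.9 CPM in the P1 GFP+ libraries and 117 to 146 CPM in GFP- libraries. Its 8 Schwann cell markers summed to 2741 CPM against 1370 CPM in replicate 1. Their sums were 578 to 634 CPM in the P1 GFP+ libraries and 1097 to 1967 CPM in GFP- libraries. For both lists replicate 2 thus lay above every GFP- library, and replicate 1 was within the GFP- range for Schwann cell markers. No marker of these 3 lists was at 0. The part of hair cells and of these other cells in the results below was not tested. The results that rest on this library are therefore given with and without it.

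The Sprouty genes, which encode inhibitors of signaling from receptor tyrosine kinases, ran from log2 2.19 to -4.08 in the P1 ratio of GFP+ to GFP- cells, the widest range of the 4 families. Spry2 was the member with the highest RPKM in both GFP+ groups and was higher in GFP+ than in GFP- cells at both ages. Spry4 was the member with the lowest RPKM in both GFP+ groups and was lower there than in GFP- cells at both ages. Spry1 was higher in GFP+ cells at P1 and fell with age in GFP+ cells.

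Spry2 (ENSMUSG00000022114, chr14:106291166-106296036, minus strand, 2 exon blocks) stood at 152 and 132 CPM in P1 GFP+ cells, 31.5 and 35.6 CPM in P1 GFP- cells, 242 and 182 CPM in P6 GFP+ cells, and 45.9 and 38.3 CPM in P6 GFP- cells. The GFP+ and GFP- libraries did not overlap at either age, and all 4 GFP+ libraries lay above all 4 GFP- libraries. In edgeR's quasi-likelihood test Spry2 was 4.55-fold higher in GFP+ cells at P1 (log2 2.19 ± 0.13 SE, adjusted p = 5.69e-05, n = 2 per group). At P6 it was 5.02-fold higher (log2 2.33 ± 0.23 SE, edgeR adjusted p = 0.00222). Between the ages it did not pass the test in either fraction, at log2 0.67 ± 0.20 SE in GFP+ cells (edgeR adjusted p = 0.0717) and 0.52 ± 0.15 SE in GFP- cells (edgeR adjusted p = 0.0481).

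Spry4 (ENSMUSG00000024427, chr18:38745922-38760922, minus strand, 2 exon blocks) had the opposite distribution. It was at 3.49 and 3.29 CPM in P1 GFP+ cells and at 56.6 and 67.3 CPM in P1 GFP- cells. At P6 it was at 3.43 and 10.7 CPM in GFP+ cells and at 72.9 and 56.0 CPM in GFP- cells. The fractions did not overlap at either age, and the only GFP+ library above 4 CPM was P6 replicate 2, the library with the higher level of mesenchyme and endothelial markers. Spry4 was 16.9-fold lower in GFP+ cells at P1 (log2 -4.08 ± 0.14 SE, edgeR adjusted p = 1.41e-05). At P6 it was 9.02-fold lower (log2 -3.17 ± 0.51 SE, edgeR adjusted p = 0.00854). Without P6 GFP+ replicate 2 the P6 value was log2 -4.21, and without replicate 1 it was -2.56. With counts scaled to library totals the P6 call was lost (edgeR adjusted p = 0.0128).

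Spry1 (ENSMUSG00000037211, chr3:37538869-37543520, plus strand, 2 exon blocks) was at 48.7 and 51.7 CPM in P1 GFP+ cells and between 16.9 and 22.1 CPM in the other 6 libraries. Those 6 libraries were the P1 GFP- pair at 21.2 and 22.1 CPM, the P6 GFP+ pair at 21.6 and 19.0 CPM, and the P6 GFP- pair at 16.9 and 17.9 CPM. The P1 GFP+ pair thus lay apart from all other libraries. Spry1 was 2.49-fold higher in GFP+ than in GFP- cells at P1 (log2 1.32 ± 0.09 SE, edgeR adjusted p = 0.000114) and did not pass the test at P6 (log2 0.21 ± 0.18 SE, edgeR adjusted p = 0.404). In GFP+ cells it fell by 1.22 ± 0.15 SE on the log2 scale from P1 to P6 (edgeR adjusted p = 0.00829), the only member called there. In GFP- cells the difference was -0.12 ± 0.13 SE (edgeR adjusted p = 0.545). The P1 GFP+ libraries enter both the P1 comparison and the age comparison, so these calls are not independent of each other. The P6 ratio minus the P1 ratio was log2 -1.12 ± 0.19 SE, which missed the threshold of 0.01 (edgeR adjusted p = 0.0144). Without P6 GFP+ replicate 2 this difference was -1.004, and without replicate 1 it was -1.25. The fall with age in GFP+ cells lost its call without P1 GFP+ replicate 1 (log2 -1.23, edgeR adjusted p = 0.0316) and without P1 GFP+ replicate 2 (log2 -1.20, edgeR adjusted p = 0.0845).

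**Figure D1:**
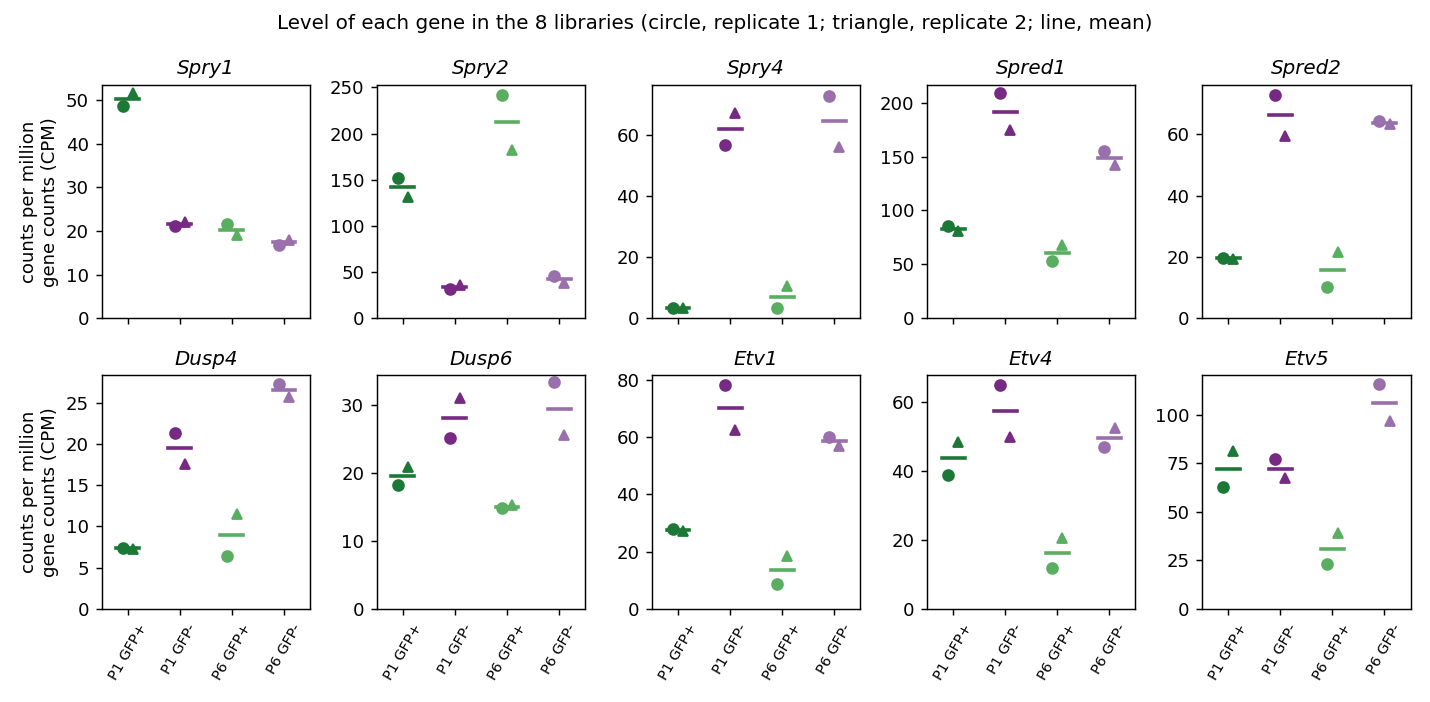
Level of the 10 genes in each library in CPM (y axis, from 0, own scale per gene), by age and fraction (x axis), with circles for replicate 1, triangles for replicate 2 and lines for the mean of the pair. Spry1 and Spry2 are the genes with P1 GFP+ libraries above both P1 GFP- libraries, Spry4 is near the axis in GFP+ cells, and for Etv5 the P1 fractions overlap while the P6 fractions stand apart.

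Per kilobase of exon, Spry2 made up 80.6% and 77.3% of the summed level of the 3 Sprouty genes in GFP+ libraries of P1 and 93.4% and 90.8% in those of P6. In GFP- libraries its share was 43.5% and 43.4% at P1 and 50.38% and 50.01% at P6. The ratio of Spry2 to Spry4 per kilobase, which needs no scaling between libraries, was 95.9 and 87.8 in the P1 GFP+ pair, 155 and 37.2 in the P6 GFP+ pair, and 1.163 to 1.505 in the 4 GFP- libraries. The ratio of Spry2 to Spry1 was 4.35 and 3.55 in the P1 GFP+ pair and 15.7 and 13.4 in the P6 GFP+ pair. In GFP- cells it was 2.08 and 2.25 at P1 and 3.79 and 2.98 at P6.

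**Figure D2:**
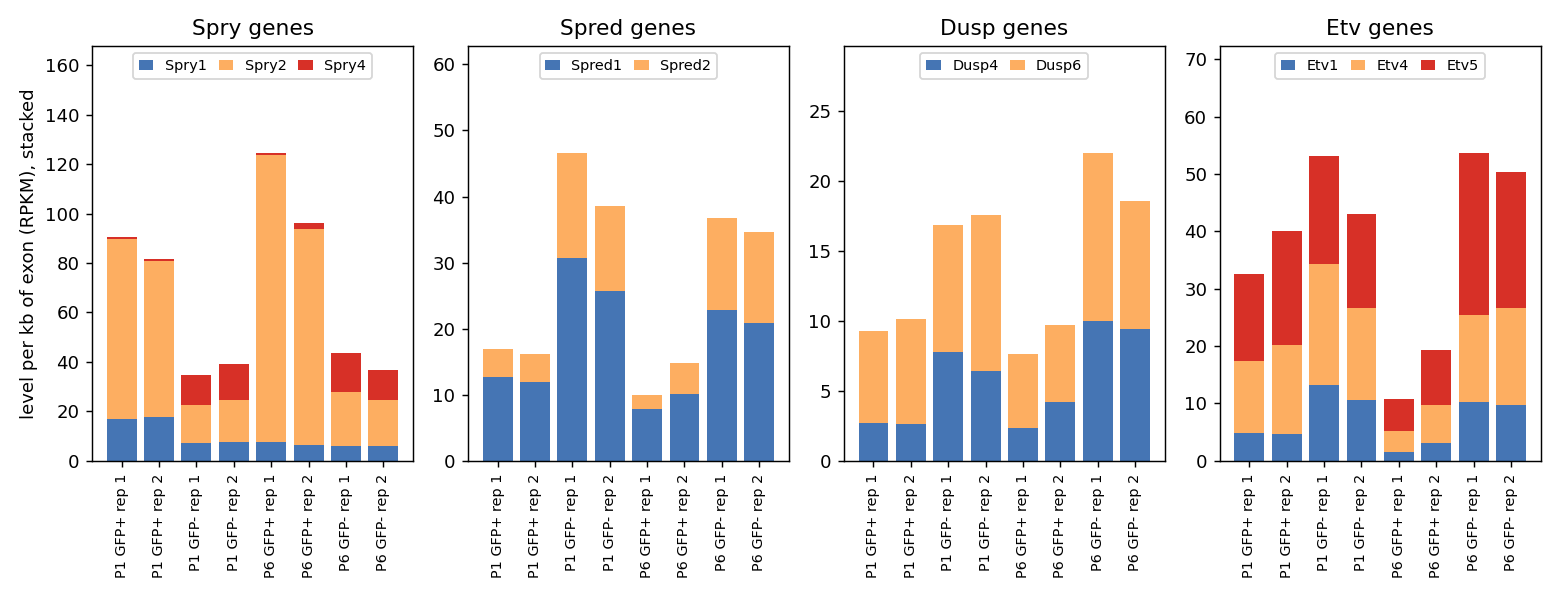
Level per kilobase of exon (RPKM, y axis) of the members of each family, stacked, in the 8 libraries (x axis). The Spry bars of GFP+ libraries are mostly Spry2 with almost no Spry4, while those of GFP- libraries hold all 3 genes, and the Etv bars of the P6 GFP+ libraries are the shortest of that panel at 10.8 and 19.3 RPKM.

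The promoters of Spry1 and Spry2 are shown because these were the only members called higher in GFP+ cells at P1, and Spry2 was the only one called higher at P6. The 250 bases before each start are given 5′ to 3′ from RefSeq (GRCm38.p6). Each run was searched on the mm9 chromosome of its gene only and matched there once, next to the annotated first base of the gene. The match was at chr3:37538619-37538868 on the plus strand for Spry1 and at chr14:106296037-106296286 on the minus strand for Spry2.
Spry1: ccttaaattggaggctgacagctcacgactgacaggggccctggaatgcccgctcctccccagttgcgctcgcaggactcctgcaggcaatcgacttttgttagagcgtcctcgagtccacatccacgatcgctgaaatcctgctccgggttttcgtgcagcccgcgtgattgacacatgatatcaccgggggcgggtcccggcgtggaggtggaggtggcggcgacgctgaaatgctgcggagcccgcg
Spry2: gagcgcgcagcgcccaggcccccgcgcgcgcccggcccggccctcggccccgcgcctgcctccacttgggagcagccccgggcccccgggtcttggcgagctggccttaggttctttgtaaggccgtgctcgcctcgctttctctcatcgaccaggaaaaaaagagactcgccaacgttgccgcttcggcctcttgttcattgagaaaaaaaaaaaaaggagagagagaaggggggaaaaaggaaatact

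RefSeq promoter windows of 300 bases (250 before and 50 after the start) were at hand for 7 of the 10 members, 9 windows in all, and not for Dusp4, Etv4 and Spry4. The ETS core CCGGAA, searched on both strands, was found in 1 of the 9 windows, that of Spry2, and in 14.9% of all 32851 windows. It begins at base 34 of the Spry2 transcript, in this 29-base stretch (chr14:106295987-106296015 of mm9, minus strand), with the motif in capitals.
Spry2 motif: aggtcatctatcCCGGAAtccgggagggt

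The AP-1 motif TGACTCA (5.2% of all windows) and the CRE motif TGACGTCA (1.79%) were in none of the 9 member windows.

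The Spred genes were lower in GFP+ cells. Both encode membrane-bound inhibitors of the step from Ras to Raf. Spred1 (ENSMUSG00000027351, chr2:116947110-117008015, plus strand, 7 exon blocks) was at 85.6 and 80.8 CPM in P1 GFP+ cells against 209 and 175 CPM in P1 GFP- cells, and at 52.8 and 68.2 CPM against 155 and 142 CPM at P6. All GFP- libraries lay above all GFP+ libraries. It was 2.14-fold lower in GFP+ cells at P1 (log2 -1.10 ± 0.12 SE, edgeR adjusted p = 0.000664) and 2.47-fold lower at P6 (log2 -1.30 ± 0.18 SE, edgeR adjusted p = 0.00597).

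Spred2 (ENSMUSG00000045671, chr11:19824378-19924029, plus strand, 8 exon blocks) was at 19.7 and 19.4 CPM in P1 GFP+ cells, 72.9 and 59.5 CPM in P1 GFP- cells, 10.1 and 21.7 CPM in P6 GFP+ cells and 64.1 and 63.4 CPM in P6 GFP- cells. The fractions did not overlap, and the P6 GFP+ replicates differed from each other more than either differed from the P1 GFP+ mean of 19.5 CPM. Spred2 was 3.15-fold lower in GFP+ cells at P1 (log2 -1.66 ± 0.13 SE, edgeR adjusted p = 0.000174). At P6 the value was log2 -2.01 ± 0.35 SE and just missed the threshold (edgeR adjusted p = 0.0106). The P6 value was log2 -2.64 without P6 GFP+ replicate 2 and -1.53 without replicate 1. In these fits the P6 GFP- pair alone gave the spread, so they do not decide the call.

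The phosphatase genes had the lowest summed RPKM of the 4 families in every library. Dusp4 encodes a nuclear phosphatase of ERK and related kinases, and Dusp6 a cytoplasmic one specific to ERK. Dusp4 (ENSMUSG00000031530, chr8:35870351-35882948, plus strand, 4 exon blocks) was at 7.42 and 7.27 CPM in P1 GFP+ cells, 21.4 and 17.6 CPM in P1 GFP- cells, 6.42 and 11.5 CPM in P6 GFP+ cells, and 27.3 and 25.7 CPM in P6 GFP- cells. It was 2.46-fold lower in GFP+ cells at P1 (log2 -1.30 ± 0.16 SE, edgeR adjusted p = 0.00118), and at P6 the value of log2 -1.56 ± 0.29 SE did not pass (edgeR adjusted p = 0.0129). The P6 value was -2.03 without P6 GFP+ replicate 2 and -1.18 without replicate 1.

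Dusp6 (ENSMUSG00000019960, chr10:98725865-98730122, plus strand, 3 exon blocks) was at 18.2 and 20.9 CPM in P1 GFP+ cells, 25.2 and 31.1 CPM in P1 GFP- cells, 14.8 and 15.3 CPM in P6 GFP+ cells, and 33.5 and 25.6 CPM in P6 GFP- cells. It was the member with the narrowest range over the 8 libraries, although the fractions did not overlap at either age. Its ratio of GFP+ to GFP- did not pass at P1 (log2 -0.42 ± 0.14 SE, edgeR adjusted p = 0.0476) or at P6 (log2 -0.98 ± 0.20 SE, edgeR adjusted p = 0.0175). The P6 value was log2 -0.98 without P6 GFP+ replicate 2 and -0.93 without replicate 1.

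Of the Etv genes, Etv1 was called lower in GFP+ cells at P1, and Etv1, Etv4 and Etv5 were at P6. The difference between the ages in these ratios did not pass the test for any of the 3. Etv5 (ENSMUSG00000013089, chr16:22381382-22439792, minus strand, 15 exon blocks) was at 62.6 and 81.2 CPM in P1 GFP+ cells and 77.1 and 67.2 CPM in P1 GFP- cells, which overlap. At P6 it was at 23.1 and 39.0 CPM in GFP+ cells and 116 and 97.0 CPM in GFP- cells, so the P6 GFP+ pair lay below and the P6 GFP- pair above every P1 library. The ratio was log2 0.09 ± 0.14 SE at P1 (edgeR adjusted p = 0.596) and -1.79 ± 0.27 SE at P6, 3.45-fold lower in GFP+ cells (edgeR adjusted p = 0.00746). From P1 to P6 the difference was log2 -1.12 ± 0.26 SE in GFP+ cells (edgeR adjusted p = 0.0421) and 0.75 ± 0.14 SE in GFP- cells (edgeR adjusted p = 0.0128), neither of which passed 0.01. With 1 library left out the GFP+ value ran from -1.51 to -0.81. The difference between the ratios at the 2 ages was log2 -1.90 ± 0.33 SE and missed the threshold as well (edgeR adjusted p = 0.0165). It was -2.30 without P6 GFP+ replicate 2 and -1.60 without replicate 1.

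Etv4 (ENSMUSG00000017724, chr11:101631056-101646685, minus strand, 14 exon blocks) was at 38.9 and 48.5 CPM in P1 GFP+ cells, 65.2 and 49.8 CPM in P1 GFP- cells, 11.7 and 20.5 CPM in P6 GFP+ cells, and 46.9 and 52.6 CPM in P6 GFP- cells. The P6 GFP+ pair was the lowest of the 4, and the P1 GFP+ library at 48.5 CPM lay close to the lowest GFP- libraries. The ratio of GFP+ to GFP- was log2 -0.30 ± 0.16 SE at P1 (edgeR adjusted p = 0.175) and -1.63 ± 0.28 SE at P6, 3.10-fold lower in GFP+ cells (edgeR adjusted p = 0.00971). The P6 value was -2.07 without P6 GFP+ replicate 2 and -1.26 without replicate 1. The difference in GFP+ cells from P1 to P6 was log2 -1.35 ± 0.28 SE (edgeR adjusted p = 0.0302) and in GFP- cells -0.02 ± 0.15 SE (edgeR adjusted p = 0.952). With 1 library left out the difference in GFP+ cells ran from -1.77 to -1.02. The interaction was log2 -1.35 ± 0.34 SE (edgeR adjusted p = 0.0569).

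Etv1 (ENSMUSG00000004151, chr12:39505967-39594802, plus strand, 17 exon blocks) was at 28.0 and 27.3 CPM in P1 GFP+ cells, 78.1 and 62.3 CPM in P1 GFP- cells, 8.55 and 18.6 CPM in P6 GFP+ cells, and 60.2 and 56.8 CPM in P6 GFP- cells. All GFP+ libraries lay below all GFP- libraries, and both P6 GFP+ libraries lay below the P1 GFP+ pair. Etv1 was 2.36-fold lower in GFP+ cells at P1 (log2 -1.24 ± 0.13 SE, edgeR adjusted p = 0.000639) and 4.31-fold lower at P6 (log2 -2.11 ± 0.35 SE, edgeR adjusted p = 0.00962). The P6 value was -2.75 without P6 GFP+ replicate 2 and -1.63 without replicate 1. In GFP+ cells the difference between the ages was log2 -0.93 ± 0.35 SE (edgeR adjusted p = 0.119). With 1 library left out this difference ran from -1.57 to -0.51.

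Across the set, 7 of 10 members were called at P1, 2 higher in GFP+ cells (Spry1 and Spry2) and 5 lower (Spry4, Spred1, Spred2, Dusp4 and Etv1). Of the 18682 genes tested 37.3% were called, 16.6% higher and 20.7% lower. The fractions did not overlap for 9 of the 10 members, with Etv5 as the exception, nor for 79.3% of all genes tested. The median over the 10 was log2 -0.76, beside 0.01 over all genes tested. Called here means p and adjusted p below 0.01 in edgeR's quasi-likelihood test. Dusp6, Etv4 and Etv5 did not pass. With the added demand of a change above 4-fold, Spry2 and Spry4 remained, where 17.8% of genes passed. Without P1 GFP+ replicate 1 or without replicate 2 Dusp4 lost its call and 6 were called (edgeR adjusted p = 0.0136 and 0.0154). Without P1 GFP- replicate 1 Dusp6 was called as well, and without P1 GFP- replicate 2 Etv4 was, giving 8. The share of all genes called was 19.2% and 19.0% in the former fits and 50.3% and 51.3% in the latter.

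At P6, 6 of 10 members were called, Spry2 higher and Spry4, Spred1, Etv1, Etv4 and Etv5 lower in GFP+ cells. Of the 18294 genes tested 12.9% were called, 7.72% higher and 5.19% lower. With the added demand of a change above 4-fold, Spry2, Spry4 and Etv1 remained, where 7.98% of genes passed. The median over the 10 was log2 -1.60, beside -0.02 over all genes tested. The fractions did not overlap for any of the 10 members, which was also true of 73.4% of all genes tested. The count depended on the spread within the P6 pairs. Without P6 GFP+ replicate 1 or without replicate 2 it was 9, with Spry1 as the exception, and the share of all genes called rose with it, to 29.2% and 40.5%. Without P6 GFP- replicate 1 or without replicate 2 it was 0, although 8 and 9 members then had an unadjusted p below 0.05 in edgeR. The P6 GFP+ pair alone then gave the spread, and 2.01% and 0% of all genes were called. With library totals in place of TMM scaling it was 2 (Spry2 and Spred1), and with the DESeq2 test it was 9.

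**Figure D3:**
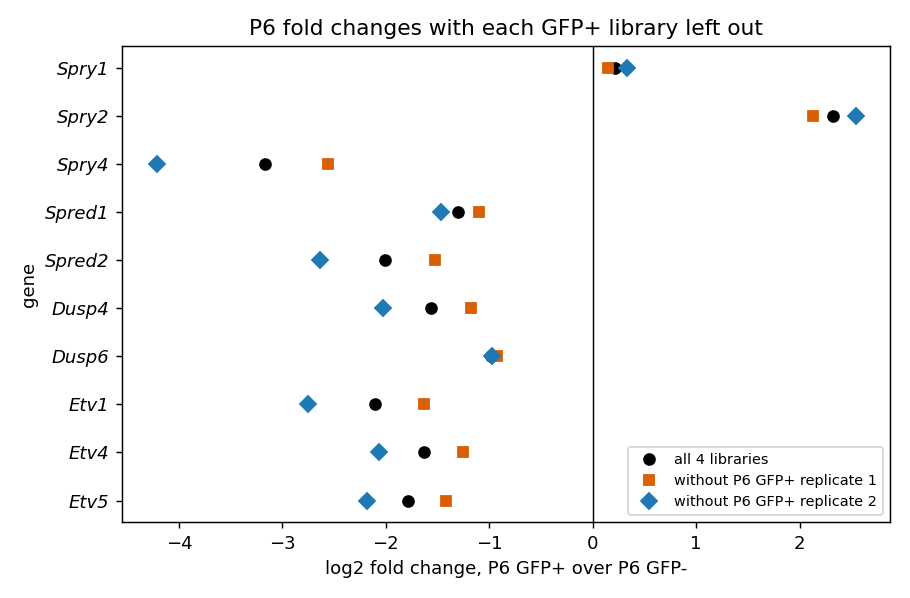
Log2 fold change of GFP+ over GFP- cells at P6 (x axis) of each gene (y axis), with all 4 libraries (circles), without P6 GFP+ replicate 1 (squares) and without P6 GFP+ replicate 2 (diamonds). For each gene the diamond lies farther from 0 than the square, for example at -4.21 and -2.56 for Spry4, and no gene changes side.

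Within the P6 GFP+ pair, 8 of 10 members were higher in replicate 2 than in replicate 1, where 52.9% of 15564 genes were. Spry1 and Spry2, the members with the higher mean in GFP+ than in GFP- cells at P6, were the exceptions. In P1 GFP+ cells 4 of 10 members were higher in replicate 2, where 60.6% of genes were.

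Between the ages, 1 of 10 members was called in GFP+ cells (Spry1, lower at P6), where 4.81% of the 17213 genes tested were called and 1.95% were called lower, and the median over the 10 was log2 -0.33 beside 0.00 over all genes. Without P6 GFP+ replicate 2 the count was 7, namely Spry2 higher and Spry1, Spred1, Spred2, Etv1, Etv4 and Etv5 lower at P6. It was also 7 without P6 GFP+ replicate 1, but with Spry2, Spry4 and Dusp4 higher and Spry1, Etv1, Etv4 and Etv5 lower. In these fits 43.2% and 35.3% of all genes were called against 4.81% with all 4 libraries, so the members' counts rose together with the background. The values depended on the library kept, and Spry4 stood at log2 0.13 without replicate 2 and 1.72 without replicate 1. Spred2 stood at -0.83 and 0.22, and Dusp4 at -0.07 and 0.71. Without P1 GFP+ replicate 1 or without replicate 2 no member was called, with 4 and 3 members at an unadjusted p below 0.05 in edgeR and 4.35% and 0.757% of all genes called.

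In GFP- cells 0 of 10 members were called between the ages in edgeR, with 3 at an unadjusted p below 0.05 (Spry2, Dusp4 and Etv5, all with a higher level at P6) and 2 called by DESeq2 (Dusp4 and Etv5). Of the 18920 genes tested 7.38% were called. The median over the 10 was log2 0.19, beside -0.02 over all genes. Dusp4 stood at log2 0.64 ± 0.15 SE (edgeR adjusted p = 0.0296). With library totals in place of TMM scaling the median of all genes moved by -0.19 on the log2 scale in this comparison and by -0.10 in the P1 comparison, and the GFP- value of Spred2 turned from 0.14 to -0.05. Without P1 GFP- replicate 1 the count of called members was 2, and without replicate 2 it was 1, where 15.1% and 15.6% of all genes were called. Other cell markers moved with age in GFP- cells. The summed cartilage markers were 19297 to 19437 CPM in the P1 GFP- libraries and 42673 to 46467 CPM in the P6 GFP- libraries. Of these 6 markers 3 were called higher and 1 lower, and 4 had a positive and 2 a negative sign. Most of the sum was Col2a1, with means of 15065 CPM at P1 and 33080 CPM at P6, while Matn1 went from 16.9 to 5.55 CPM. Macrophage markers summed to 175 to 223 CPM at P1 and 418 to 462 CPM at P6 (4 of 6 called higher), and Schwann cell markers to 1097 to 1200 CPM and 1687 to 1967 CPM (3 of 8 called higher). Neuron markers summed to 309 and 748 CPM in the P1 pair and 204 and 166 CPM in the P6 pair (2 of 8 called lower, median log2 -1.88), with no marker of these lists at 0. The part of these differences in the members' values was not tested.

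In the test of the difference between the P6 and P1 ratios, 0 of 10 members were called in edgeR, with 3 at an unadjusted p below 0.05 (Spry1, Etv4 and Etv5) and 3 called by DESeq2, the same 3 genes. Of the 19233 genes tested 1.93% were called. The count was 2 without P6 GFP+ replicate 1 (Spry1 and Etv5), and without replicate 2 it was 4 (Spry1, Etv1, Etv4 and Etv5), where 6.96% and 5.81% of all genes were called. In each of the other 6 fits with 1 library left out edgeR called 0 members, with 3 or 4 at an unadjusted p below 0.05, and 0.141% to 1.24% of all genes. For Spry2 the difference was log2 0.13, with a 95% interval from -0.50 to 0.76, and for Spred1 it was -0.22, from -0.73 to 0.29. For Spry4 the interval ran from -0.41 to 2.20. The design thus bounds the change of the Spry2 ratio more tightly than that of Spry4.

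**Figure D4:**
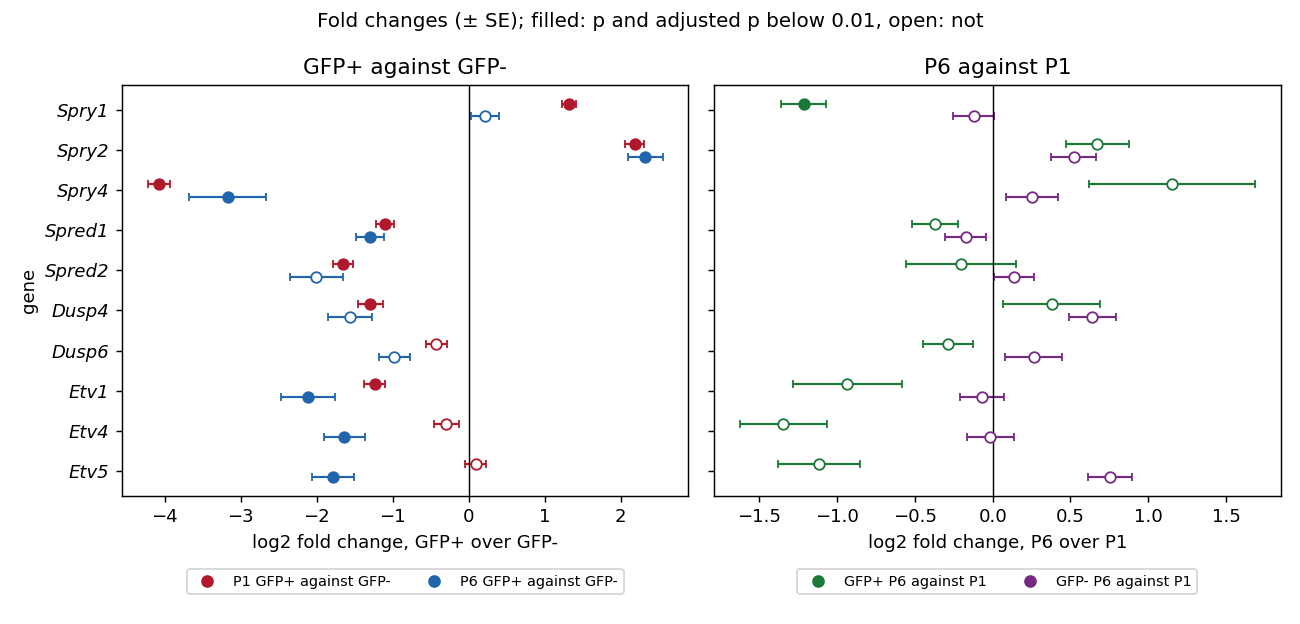
Log2 fold changes (x axis, ± SE) of each gene (y axis) for GFP+ over GFP- cells at P1 and P6 (left) and for P6 over P1 in GFP+ and GFP- cells (right), with filled points where p and adjusted p were below 0.01. Spry1, Etv4 and Etv5 show the widest gaps between the P1 and P6 points on the left, and Etv5 lies on opposite sides of 0 on the right at -1.12 and 0.75.

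Ordered by RPKM, the P1 GFP+ group ran from Spry2 (68.0 ± 6.99 SD, n = 2) through Etv5 (17.5 ± 3.19), Spry1 (17.3 ± 0.725), Etv4 (14.1 ± 2.17) and Spred1 (12.3 ± 0.504) to Spry4 (0.740 ± 0.0304). Etv5 and Spry1 overlapped, as did Etv4 and Spred1, and no other neighbours in that order did. In P1 GFP- cells Spred1 was first at 28.2 ± 3.55 RPKM and Dusp4 last at 7.10 ± 0.979 RPKM, and the neighbours from Etv4 to Dusp6 overlapped each other in turn. In P6 GFP+ cells Spry2 stood at 102 ± 20.4 RPKM and every other member below 10 RPKM on average, from Spred1 (8.92 ± 1.60) to Spry4 (1.55 ± 1.13). In P6 GFP- cells Etv5 was first (25.9 ± 3.23 RPKM) and Spry1 last (5.98 ± 0.242 RPKM). With Spry2 included, the members thus spread over a wider range of RPKM in GFP+ than in GFP- cells at both ages. The means of the other members ran from 0.740 to 17.5 RPKM in P1 GFP+ cells. In P1 GFP- cells they ran from 7.10 to 28.2 RPKM. At P6 they ran from 1.55 to 8.92 RPKM in GFP+ cells and from 5.98 to 25.9 RPKM in GFP- cells.

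Of the 4 receptor genes upstream of these members, Fgfr2, Fgfr3 and Fgfr4 were called at P1 and Fgfr1 and Fgfr3 at P6. Fgfr3, the receptor of pillar and Deiters' cells and one of the supporting cell markers used above, was at 1969 and 2196 CPM in P1 GFP+ cells and 17.3 and 30.4 CPM in P1 GFP- cells (log2 6.55 ± 0.32 SE, edgeR adjusted p = 3.32e-05), and at log2 5.05 ± 0.28 SE at P6 (edgeR adjusted p = 0.000719). Fgfr2 and Fgfr4 were lower in GFP+ cells at P1, at log2 -4.36 ± 0.15 SE (edgeR adjusted p = 1.4e-05) and -5.38 ± 0.15 SE (edgeR adjusted p = 1.02e-05). At P6 they stood at -2.78 and -3.34 and did not pass (edgeR adjusted p = 0.0247 and 0.0143). In P6 GFP+ replicate 2 Fgfr2 was at 63.2 CPM and Fgfr4 at 51.4 CPM, against 14.2 and 12.3 CPM in replicate 1. Fgfr1 did not pass at P1 (log2 -0.41 ± 0.09 SE, edgeR adjusted p = 0.0125) and was lower in GFP+ cells at P6 (log2 -1.64 ± 0.20 SE, edgeR adjusted p = 0.00403).

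Of the 15 genes for FGF receptors and ligands, 6 were higher and 3 lower in GFP+ cells at P1 among 14 tested, and 5 were higher and 1 lower at P6 among 15. Their median was log2 1.53 at P1 and 1.10 at P6, beside 0.01 and -0.02 over all genes tested. Beside the counts of this and the following lists, 37.3% of all genes tested were called at P1 and 12.9% at P6. Between the ages 4.81% were called in GFP+ cells and 7.38% in GFP- cells. Fgf20 and Fgf3, ligands of the sensory epithelium, were higher at P1 by log2 8.20 ± 0.33 and 7.60 ± 0.44 SE (edgeR adjusted p = 2.07e-05 and 5.77e-05). At P6 they were higher by 5.43 and 7.92 (edgeR adjusted p = 0.00116 and 0.000645). The size of these values rests on few reads in GFP- cells. The P1 GFP- pair held 2 and 2 reads of Fgf20 and 4 and 41 of Fgf3, and the P6 pair 6 and 9 of each. Between the ages in GFP+ cells 0 of 14 were called by edgeR, with 11 at an unadjusted p below 0.05 and 6 called by DESeq2. In GFP- cells 2 of 13 were higher at P6, namely the mesenchymal ligand Fgf7 (log2 1.68) and Fgfr2 (log2 0.94).

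Among 9 other Sprouty, Spred and MAP kinase phosphatase genes tested at P1, 1 was higher and 3 were lower in GFP+ cells, with a median of log2 -0.83, and at P6 the median was -0.06. Dusp16, a phosphatase of the JNK and p38 kinases, was higher in GFP+ cells at P1 (log2 1.47 ± 0.09 SE, edgeR adjusted p = 7.39e-05) and at P6 (log2 1.83 ± 0.16 SE, edgeR adjusted p = 0.00162), where it was the only one of 9 called. Dusp9 and Dusp10 were lower at P1 (log2 -3.44 and -2.54). Dusp1, an immediate early phosphatase, rose from P1 to P6 in both fractions, by log2 1.84 ± 0.16 SE in GFP+ cells (edgeR adjusted p = 0.00398) and by 1.68 ± 0.12 SE in GFP- cells (edgeR adjusted p = 0.000544). It was the one gene called in GFP- cells, and in GFP+ cells Dusp8 rose as well (log2 1.80).

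Of 15 tested genes for other feedback on receptors and Ras, 2 were higher and 5 lower in GFP+ cells at P1. At P6 1 was higher and 2 were lower, and the medians were log2 -0.27 and -0.67. The list holds inhibitors and also the Flrt genes for FGF receptor partners. Il17rd (Sef, an inhibitor of FGF signaling) was lower at P1 (log2 -3.13 ± 0.20 SE, edgeR adjusted p = 7.44e-05), as was Flrt3, an FGF receptor partner (log2 -2.91 at P1 and -2.99 at P6). Paqr3, which holds Raf at the Golgi, was higher (log2 2.82 at P1 and 1.94 at P6). In GFP+ cells 0 of 15 were called between the ages by edgeR, with 5 at an unadjusted p below 0.05 and 1 called by DESeq2. In GFP- cells Errfi1 rose (log2 1.06) and Il17rd and Lrig1 fell (log2 -1.12 and -0.74).

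Of the 20 genes of the adaptors and of the cascade itself, at P1 2 were higher and 3 lower in GFP+ cells. At P6 1 was higher and 1 lower. Of all genes tested 37.3% were called at P1 and 12.9% at P6. The medians of the 20 genes were log2 0.19 and 0.10. Map2k1, which encodes the ERK kinase MEK1, was higher (log2 1.33 ± 0.12 SE at P1 and 1.32 ± 0.18 SE at P6, edgeR adjusted p = 0.000284 and 0.0056). The adaptor Shc1 was lower (log2 -1.73 ± 0.09 and -1.72 ± 0.25 SE, edgeR adjusted p = 4.71e-05 and 0.0066). Between the ages 0 of 20 were called by edgeR in GFP+ cells, with 2 at an unadjusted p below 0.05 and 1 called by DESeq2. In GFP- cells 0 of 20 were called by edgeR and by DESeq2, with 3 at an unadjusted p below 0.05 in edgeR.

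Of 11 other ETS factors tested, 1 was higher and 6 were lower in GFP+ cells at P1, and 1 was called at P6, with medians of log2 -0.52 and -0.58. Etv6, a repressor, was the one called higher at both ages (log2 1.56 ± 0.15 and 1.42 ± 0.17 SE, edgeR adjusted p = 0.000412 and 0.00379). Ets1, Fli1 and Erg, which are expressed in endothelial cells, were lower at P1 (log2 -4.44, -3.86 and -3.17). In GFP+ cells 0 of 11 were called between the ages by edgeR, with 4 at an unadjusted p below 0.05 and 2 called by DESeq2, and in GFP- cells Fli1 rose (log2 0.95).

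Among 12 immediate early genes, Ier3 was lower in GFP+ cells at both ages (log2 -4.12 and -2.85) and Junb at P1 (log2 -0.92). Junb and Jun rose from P1 to P6 in GFP+ cells (log2 2.00 and 1.74) and in GFP- cells (log2 1.55 and 1.24), where Atf3 rose too (log2 2.61). The median of the 12 between the ages was log2 0.85 in both fractions, beside 0.00 and -0.02 over all genes.

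The genes with the pattern most like each member over the 8 libraries were sought among 10910 genes with a mean of at least 10 CPM, by Pearson's r of log2 CPM (prior count 2). They were Galnt2 for Spry2 (r = 0.997), Lrrn2 for Spry4 (r = 0.999), Mrps5 for Spry1 (r = 0.995), Dzip1 for Spred1 (r = 0.996), Ptprd for Spred2 (r = 0.999), Card6 for Dusp4 (r = 0.997), Hyal2 for Dusp6 (r = 0.982), Prkd3 for Etv1 (r = 0.997), Arid3a for Etv4 (r = 0.997) and Fut11 for Etv5 (r = 0.986). These values describe 8 libraries in 4 pairs that share age, sort and library, and the highest of 10910 values is high by selection.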

How the data were processed

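RNA-seq reads of 100 bases were aligned by the authors to mm9 with TopHat (1.4.0 in the processing notes) and counted per Ensembl gene with HTSeq. The deposited values are raw read counts from an unstranded kit, and the counting mode is not given in the sources used here. Rows naming no gene held 23.8% to 35.3% of each library and were left out. The members' exons share no base with another counted gene. Libraries were grouped by labelled age and fraction. Each comparison was fitted on its own 4 libraries (the interaction on 8) in R 4.3.3 with edgeR 4.0.16, using filterByExpr (minimum count 10, minimum total 15), TMM scaling and quasi-likelihood F tests, with p-values adjusted by Benjamini-Hochberg over all genes tested. P-values measure the spread between libraries of pooled pups. Each SE is the absolute log2 fold change divided by the square root of F, and intervals use it with the degrees of freedom of the test. DESeq2 1.42.0 served as an alternative, with other scalings, no filter, all 8 libraries, a replicate block and each library left out. Fits were tested on simulated data. The text names all members, Fgfr1 to Fgfr4, at most 3 called genes with the largest change per other list and comparison, and the gene most like each member. The members and lists were chosen with earlier results of these data known. Spry3 was not analysed here, and Dusp8 and Flrt3 matched 2 rows each, counted separately. Figures were drawn with matplotlib 3.10.9 in Python 3.11.15.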

Additional observations from a re-analysis of the deposited data

Results flagged for a closer look

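The ratio of GFP+ to GFP- cells differed between the ages for 2 members when the interaction test of edgeR was read at an adjusted p below 0.05 in place of 0.01. For Etv5 the P6 log2 ratio minus the P1 log2 ratio was -1.90 ± 0.33 SE (edgeR adjusted p = 0.0165). Its level was lower in both P6 GFP+ libraries than in both P1 GFP+ libraries, and higher in both P6 GFP- libraries than in both P1 GFP- libraries. For Spry1 the same difference was -1.12 ± 0.19 SE (edgeR adjusted p = 0.0144), and the P1 GFP+ pair lay above the other 6 libraries. No group was large enough for a check of single outlying libraries.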

How the results depend on the processing

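Counts of called members were 7 at P1, 6 at P6, 1 between the ages in GFP+ cells, 0 in GFP- cells and 0 for the interaction. At adjusted p below 0.05 the last 3 became 3, 3 and 2. With a fold above 4 the P1, P6 and GFP+ age counts became 2, 3 and 0. Library totals gave 2 at P6, with 1796 of all genes called. DESeq2 size factors and the replicate block each gave 8 at P6, with 2841 and 2837 of all genes called. Adjusted p below 0.05, no filter, the DESeq2 test and all 8 libraries each gave 9 at P6. Without the filter the GFP+, GFP- and interaction counts became 5, 3 and 3, with the DESeq2 test 3, 2 and 3, and with all 8 libraries the GFP+ count became 2. With a replicate block the GFP+ and GFP- counts became 3 and 1, and with the block crossed, chosen after seeing the data, the GFP- count was 2. Leaving out 1 library gave 6 to 8 at P1, 0 to 9 at P6, 0 to 7 and 0 to 2 between the ages, and 0 to 4 for the interaction. Same-numbered libraries correlated weakly in their deviations (0.02, 0.09, -0.08 and -0.28). The labels do not say whether GFP+ and GFP- libraries of the same number came from the same pool of pups. With 1 difference per group these values cannot decide it. The value of -0.28 led to the crossed block.

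All genes called were 6972, 2363, 828, 1397 and 372 in the same order. At adjusted p below 0.05 the last 4 were 6122, 3511, 3619 and 1228, and with a fold above 4 all 5 were 3331, 1459, 441, 350 and 242. Without the filter the last 4 were 5309, 4090, 3993 and 2400, and with DESeq2 4891, 3037, 3043 and 1422. All 8 libraries gave 5157, 2361 and 769 for P6, GFP+ and GFP-, the crossed block 3063 for GFP- and the replicate block 151 for the interaction. Leaving out 1 library gave 3675 to 9798, 0 to 7765, 137 to 7531, 249 to 3029 and 28 to 1407. With library totals the share of higher calls moved from 59.8% to 71.4% at P6, from 68.3% to 49.5% in GFP- cells and from 48.9% to 60.2% for the interaction.

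The sign turned for the P1 value of Etv5 with library totals (-0.0073), and in GFP- cells between the ages for Spred2 with library totals (-0.053) and for Etv4 without the filter (0.015) and with all 8 libraries (0.013). With 1 library left out, values that changed sign ran from -0.067 to 0.25 for Etv5 at P1, from -0.83 to 0.22 for Spred2 and -0.074 to 0.71 for Dusp4 between the ages in GFP+ cells, and from -0.018 to 0.28 for Spred2, -0.24 to 0.089 for Etv1 and -0.21 to 0.18 for Etv4 in GFP- cells. In the interaction they ran from -0.13 to 0.34 for Spry2, -0.15 to 1.43 for Spry4, -1.003 to 0.046 for Spred2 and -0.75 to 0.037 for Dusp4. No value whose sign had turned was called. The cause of these changes was not tested, except that leaving out a library lets the other pair alone set the spread, with the lone library assumed to vary like it. With 2 libraries per group a member is known no better than that spread.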
